A study of Mus musculus with 19 samples.

Results

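The genes described here are 10 genes of vitamin A (retinoid) metabolism in mouse small intestinal crypts: Scarb1, Bco1, Rbp2, Lrat, Rdh7, Adh1, Aldh1a1, Cyp26b1, Isx, and Rara. They were chosen by name as a list of vitamin A genes, with earlier results of these data known. Each was matched by symbol to 1 Ensembl gene, out of 55487 genes in the files. RNA was sequenced from crypts of 19 mice, 1 library per mouse, in 4 groups taken from the sample titles: 5 Nt+/+ and 4 Nt-/- mice on standard chow ad libitum, and 5 mice of each genotype that had only water for 48 hours. Nt+/+ is wild type and Nt-/- is deficient in neurotensin, a gut peptide hormone released after a meal. All were adult C57BL/6 mice, male and female. The study's methods also describe lines carrying the Lgr5-EGFP-IRES-CreERT2 knock-in, in which a fluorescent reporter and an inducible Cre stand at the Lgr5 locus; the labels do not say which of these mice carried it. Per the study's methods, crypts came from most of the length of the small intestine, without its distal end. They were freed by EDTA and filtered, without a sort for cell type.

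Vitamin A reaches the intestine as plant carotenoids or as retinyl esters. Carotenoids enter through the scavenger receptor encoded by Scarb1 and are cleaved to retinal by Bco1. Inside the enterocyte, the absorptive cell, retinol and retinal are carried by the binding protein Rbp2, and retinol is esterified by Lrat for export in chylomicrons. Retinol can instead be oxidized to retinal by alcohol and retinol dehydrogenases such as Adh1 and Rdh7, and retinal to retinoic acid by Aldh1a1. Retinoic acid acts through nuclear receptors such as Rara and is cleared by Cyp26 enzymes. It also induces Isx, a homeobox factor known to repress Scarb1 and Bco1, which closes a feedback loop on carotenoid uptake.

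Fasting raised 4 of these genes and lowered 2 in each genotype. Of all tested genes, 21.6% passed the test in Nt+/+ and 25.2% in Nt-/- mice. Aldh1a1, Rdh7, Adh1, and Rbp2 rose 2.93- to 4.39-fold in Nt+/+ mice and 3.11- to 4.92-fold in Nt-/- mice. Bco1 fell 4.49- and 4.99-fold in Nt+/+ and Nt-/- mice, and Lrat fell by less. Scarb1, Isx, and Rara did not pass the test in either genotype, and Cyp26b1 was too low to test. No gene of the 10 passed the test between Nt-/- and Nt+/+ mice, fed or fasted. The plot of levels by mouse shows all 10 genes.

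**Figure D1:**
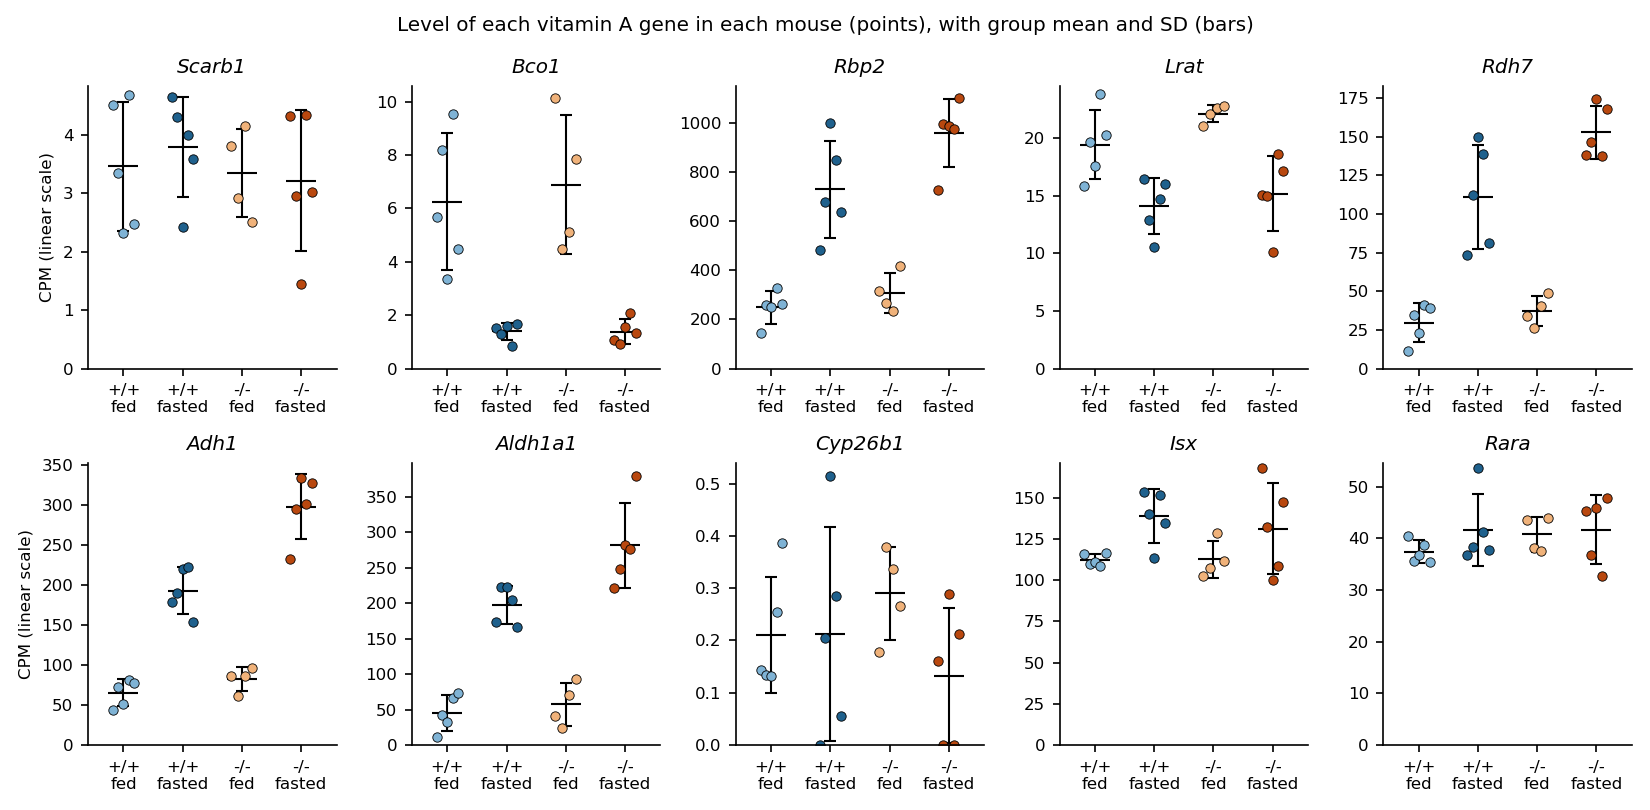
CPM (counts per 1000000 counts, linear axis from 0) of each of the 10 genes in each mouse, with group means and SD, for ad libitum–fed ("fed") and fasted Nt+/+ and Nt-/- mice. Aldh1a1, Rdh7, Adh1, and Rbp2 lie higher and Bco1 lower in every fasted mouse than in every fed mouse of the same genotype, while Scarb1 and Rara overlap between diets.

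Sequences just before the transcription start are shown for 4 genes, because Bco1 and Rbp2 moved in opposite directions but carry the same short run of bases at nearly the same place, and because Aldh1a1 is compared below with its neighbour Aldh1a7. Each is the 120 bases before the start site in RefSeq, build GRCm38.p6, written 5′ to 3′ on the strand of the gene, and each start lies within 50 bases of the start of a protein-coding transcript in GENCODE. The Bco1 stretch is chr8:117095745-117095864 on the plus strand, and capitals mark a direct repeat of the hexamer AGGTCA spaced by 1 base, read on the opposite strand. The Rbp2 stretch is chr9:98490417-98490536 on the plus strand, and capitals mark a run of 10 bases that it shares with that repeat; the base after it is shared too.
Bco1: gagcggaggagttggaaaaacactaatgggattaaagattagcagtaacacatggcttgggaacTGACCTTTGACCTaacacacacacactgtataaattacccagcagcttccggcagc
Rbp2: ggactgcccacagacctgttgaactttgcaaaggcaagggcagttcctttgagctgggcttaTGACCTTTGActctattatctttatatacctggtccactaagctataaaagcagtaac
The hexamer AGGTCA is the binding unit of many nuclear receptors, and its direct repeats are known sites of receptor pairs with a retinoid X receptor. The repeat spaced by 1 base (AGGTCANAGGTCA) stood 56 to 44 bases before the start of Bco1 and in 11 of 32851 RefSeq windows of 250 bases searched on both strands, 0.0335%. The run TGACCTTTGA, which lies inside that repeat, began 56 bases before the start of Bco1 and 58 before that of Rbp2, and occurred in 36 windows, 0.110%. The single hexamer occurred in 14.02% of windows, among them those of Bco1, Rbp2, and Rdh7. Repeats spaced by 2 or 5 bases (AGGTCANNAGGTCA, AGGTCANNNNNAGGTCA), the spacings known for retinoic acid receptors, were each in 3 of 32851 windows, 0.00913%. None was in a window of the 10 genes, and at so small a share that absence says nothing about these genes. Scarb1 had no window. No window of Adh1, Rdh7, or Cyp26b1 had its start within 50 bases of the start of a protein-coding transcript. The motifs were chosen after the sequences had been seen, and a match describes the letters only.

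The starts of Aldh1a1 and Aldh1a7, a paralog on the same chromosome, are shown next, with capitals at the bases that differ when the stretches are aligned with gaps allowed. The Aldh1a1 stretch is chr19:20601848-20601967 on the plus strand and the Aldh1a7 stretch is chr19:20727557-20727676 on the minus strand.
Aldh1a1: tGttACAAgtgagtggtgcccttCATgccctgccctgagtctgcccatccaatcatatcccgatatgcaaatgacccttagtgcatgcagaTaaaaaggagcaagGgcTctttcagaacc
Aldh1a7: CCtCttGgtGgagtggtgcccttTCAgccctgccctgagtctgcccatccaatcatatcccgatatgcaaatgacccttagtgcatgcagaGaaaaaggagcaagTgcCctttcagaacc
Of the 120 bases, 109 (90.8%) were identical, with a longest shared run of 65 bases. Of 2259 windows of 100 bases, the length of a read, along the Aldh1a1 transcript, 1 also occurred in Aldh1a7. That counts exact matches, a different measure from the identity above, and the identity of the transcripts was not computed.

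Values below are CPM, a gene's counts per 1000000 counts on TMM-scaled library sizes, unless another unit is named, and replicates are given in the order of their numbers. Changes are log2 fold changes with their standard errors (SE) from edgeR's quasi-likelihood test over 17875 genes, with Benjamini-Hochberg adjustment and a threshold of 0.05. Libraries held 9059457 to 35068711 counts, with a median of 18541819. As a check of the labels, Nts, the neurotensin gene, was at 0.144 to 0.793 CPM in the 9 Nt-/- mice and at 4.98 to 8.59 CPM in the 10 Nt+/+ mice. In Nt+/+ fasted replicate 5, the title says Nt+/+ and the genotype label says Nt-/-. It was grouped by its title, and its Nts, at 5.43 CPM, was at the level of the other Nt+/+ mice. Epithelial markers had a summed level of 5189 to 7007 CPM in every mouse, whereas 6 fibroblast markers summed to at most 5.65 CPM and 6 pancreatic acinar markers to at most 0.433 CPM. Leukocytes and red cells were more visible, with 8 leukocyte markers at 54.8 to 147 CPM and 4 red cell markers at up to 29.1 CPM. Whether the leukocytes came from blood or from the tissue was not tested.

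Levels between genes were compared on the per-length scale of TPM (RSEM's length-corrected transcript share, as deposited). In ad libitum–fed Nt+/+ mice Rbp2 stood first, at 491 ± 159 TPM (SD, n = 5), followed by Isx at 76.4 ± 7.79, Adh1 at 57.8 ± 19.5, Aldh1a1 at 26.9 ± 16.4, Rdh7 at 21.8 ± 10.4, and Rara at 15.4 ± 1.25 TPM. Lrat was at 4.202 ± 0.976, Bco1 at 3.24 ± 1.501, Scarb1 at 1.86 ± 0.660, and Cyp26b1 at 0.0560 ± 0.0344 TPM. In this order Rbp2 and Isx, Rara and Lrat, and Scarb1 and Cyp26b1 were the neighbours whose ranges over mice did not overlap. After fasting, Adh1 at 163 ± 33.5 and Aldh1a1 at 109.6 ± 21.5 TPM stood above Isx at 92.2 ± 15.8 TPM in Nt+/+ mice, with ranges of Aldh1a1 and Isx that overlapped. Bco1, at 0.706 ± 0.116 TPM, stood below Scarb1, at 2.05 ± 0.121 TPM, in all 5 fasted Nt+/+ mice, the reverse of the fed order.

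Fasting was compared first in Nt+/+ mice. Of 17875 genes tested, 21.6% passed the test in this comparison (11.2% higher and 10.4% lower), and 6 of the 9 tested vitamin A genes did, 4 higher and 2 lower. The 9 genes had a median log2 change of 0.30, beside -0.01 over all genes. The list was chosen with earlier results of these data known, so its distance from these shares is a description and not a test. In Nt-/- mice, 25.2% of genes passed (12.5% higher and 12.6% lower), and the same 6 vitamin A genes did, with a median over the 9 of 0.22 beside -0.02. Groups of fed and fasted mice did not overlap for 14.6% of all genes in Nt+/+ and 21.3% in Nt-/- mice, and for 5 and 6 of the 10 genes. An unadjusted p under 0.05 was reached by 34.1% of all genes and 7 of the 9 in Nt+/+ mice, and by 36.5% and 6 of the 9 in Nt-/- mice.

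Carotenoid uptake and cleavage come first. Scarb1 (ENSMUSG00000037936, chr5:125277087-125341094 in GRCm38) was low in every group. In ad libitum–fed Nt+/+ mice it was at 4.51, 3.34, 2.31, 4.67, and 2.46 CPM, and in fasted Nt+/+ mice at 4.63, 4.30, 2.42, 4.00, and 3.58 CPM. Nt-/- mice were at 3.81, 2.92, 4.14, and 2.50 CPM when fed and at 4.33, 2.95, 1.45, 4.34, and 3.01 CPM when fasted. All 4 groups overlapped. The log2 change with fasting was 0.12 (95% interval -0.44 to 0.68) in Nt+/+ and -0.07 (-0.67 to 0.53) in Nt-/- mice. A rise or a fall within these intervals remains compatible with the values.

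Bco1 (ENSMUSG00000031845, chr8:117095854-117133720), which cleaves beta-carotene into retinal, fell further than any of the other tested genes of the 10. In ad libitum–fed Nt+/+ mice it was at 5.66, 8.18, 3.37, 9.54, and 4.49 CPM, and in fasted Nt+/+ mice at 1.51, 1.30, 1.59, 0.857, and 1.68 CPM. Nt-/- mice were at 10.1, 4.49, 5.10, and 7.83 CPM when fed and at 1.07, 0.908, 1.56, 2.07, and 1.32 CPM when fasted. Every fasted mouse lay below every fed mouse of either genotype. Bco1 fell by 2.17 on the log2 scale (SE 0.30, adjusted p = 4.78e-05, edgeR) in Nt+/+ mice, a 4.49-fold lower level, and by 2.32 (SE 0.32, adjusted p = 3.59e-05) in Nt-/- mice, a 4.99-fold lower level. The fasted values rested on 8 to 31 counts a mouse. Fewer cells that express a gene and less of its RNA per cell cannot be told apart in bulk crypts, here or for any gene below.

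Transport and storage split in direction. Rbp2 (ENSMUSG00000032454, chr9:98486115-98509781), the intracellular carrier of retinol and retinal in enterocytes, was the most abundant of the 10. In ad libitum–fed Nt+/+ mice it was at 144, 259, 251, 327, and 261 CPM, and in fasted Nt+/+ mice at 484, 676, 998, 849, and 639 CPM. Fed Nt-/- mice were at 314, 266, 234, and 418 CPM and fasted ones at 726, 993, 987, 973, and 1101 CPM. The lowest fasted mouse of either genotype was above the highest fed mouse. The log2 change was 1.55 (SE 0.21, adjusted p = 3.47e-05) in Nt+/+ and 1.63 (SE 0.23, adjusted p = 4.00e-05) in Nt-/- mice.

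Lrat (ENSMUSG00000028003, chr3:82892579-82903973), which esterifies retinol bound to its carrier, moved the other way and by little. It was at 15.9, 19.7, 17.6, 23.9, and 20.3 CPM in ad libitum–fed and at 16.5, 12.9, 10.6, 14.7, and 16.1 CPM in fasted Nt+/+ mice, groups that overlapped. The Nt-/- mice had 21.1, 22.1, 22.6, and 22.8 CPM when fed and 15.1, 14.98, 10.1, 18.6, and 17.2 CPM when fasted, groups that did not. Lrat fell by 0.46 (SE 0.15, adjusted p = 0.0285) in Nt+/+ and by 0.55 (SE 0.15, adjusted p = 0.0128) in Nt-/- mice. The call in Nt+/+ mice depended on single animals: without ad libitum–fed Nt+/+ replicate 4 the adjusted p was 0.0843, without replicate 5 it was 0.0561, without fasted Nt+/+ replicate 2 it was 0.0703, and without fasted replicate 3 it was 0.0782. Over all alternatives it ran from 0.00281 to 0.0843, always with a lower level in fasted mice.

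Rdh7 and Adh1, the dehydrogenases of the list that make retinal, both rose. Rdh7 (ENSMUSG00000040134, chr10:127884028-127888817), a short-chain retinol dehydrogenase, was at 11.3, 34.3, 23.1, 41.1, and 39.0 CPM in ad libitum–fed Nt+/+ mice and at 73.6, 112, 149.8, 138, and 81.0 CPM in fasted Nt+/+ mice. The Nt-/- mice had 34.0, 26.2, 40.3, and 48.9 CPM when fed and 138, 147, 175, 137, and 168 CPM when fasted. Fed and fasted mice were separate in both genotypes, and fed Nt+/+ replicate 1 was the lowest mouse. The log2 change was 1.90 (SE 0.27, adjusted p = 5.45e-05) in Nt+/+ and 2.03 (SE 0.29, adjusted p = 5.23e-05) in Nt-/- mice. Of 1579 windows of 100 bases along the Rdh7 transcript, 65 (4.12%) also occurred in the pseudogene Rdh18-ps, so the split of those reads was left to RSEM's model.

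Adh1 (ENSMUSG00000074207, chr3:138260991-138290698), a medium-chain alcohol dehydrogenase that also takes retinol, had the smallest adjusted p of the 10 in both genotypes. It was at 43.9, 72.5, 51.3, 81.1, and 77.8 CPM in ad libitum–fed Nt+/+ mice and at 179, 189.5, 220.4, 222, and 154 CPM in fasted Nt+/+ mice. Nt-/- mice were at 86.5, 60.8, 85.7, and 96.1 CPM when fed and at 232, 295, 334, 301, and 328 CPM when fasted. The 4 groups fell into 3 separate ranges, with fed mice of both genotypes lowest, fasted Nt+/+ mice next, and fasted Nt-/- mice highest. The log2 change with fasting was 1.56 (SE 0.16, adjusted p = 2.15e-06) in Nt+/+ and 1.86 (SE 0.18, adjusted p = 7.74e-07) in Nt-/- mice. An antisense gene, Gm16559, overlaps Adh1 exons and stood at 0.480 to 5.49 CPM; the strand setting of the counting is not given in the sources used here.

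Aldh1a1 (ENSMUSG00000053279, chr19:20492715-20643465), which oxidizes retinal to retinoic acid, had the largest rise of the 9 tested genes in both genotypes. It was at 10.6, 43.0, 31.8, 65.7, and 73.8 CPM in ad libitum–fed Nt+/+ mice and at 174, 222, 223, 204, and 166 CPM in fasted Nt+/+ mice. In Nt-/- mice it was at 41.5, 24.3, 70.2, and 92.8 CPM when fed and at 221, 248, 282, 276, and 379.6 CPM when fasted. Fed and fasted mice did not overlap. The log2 change was 2.14 (SE 0.37, adjusted p = 0.000458) in Nt+/+ and 2.30 (SE 0.41, adjusted p = 0.000411) in Nt-/- mice, and 1.88 in Nt+/+ mice without fed replicate 1, the mouse at 10.6 CPM. That mouse also had the lowest sum of enterocyte markers of all 19, 7080 CPM, a measure described below.

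Cyp26b1 (ENSMUSG00000063415, chr6:84571414-84593908), a retinoic acid hydroxylase, was close to the limit of these libraries, with 0 to 10 counts a mouse and at most 0.514 CPM. It had no counts in 1 fasted Nt+/+ and in 2 fasted Nt-/- mice, and it did not pass edgeR's filter on low counts. In an edgeR fit without that filter, over 34546 genes, its log2 change with fasting was 0.02 (SE 0.64) in Nt+/+ and -0.86 (SE 0.70, adjusted p = 0.515) in Nt-/- mice. With SE of this size the direction of any change was not resolved.

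Neither transcription factor passed the test. Isx (ENSMUSG00000031621, chr8:74873173-74893506) was at 116, 109.8, 111, 109, and 117 CPM in ad libitum–fed and at 154, 139.9, 113, 152, and 135 CPM in fasted Nt+/+ mice. The Nt-/- mice had 103, 108, 128, and 111 CPM when fed and 168, 132, 100.3, 108, and 147 CPM when fasted. Of the fasted Nt+/+ mice, 4 lay above all fed Nt+/+ mice and replicate 3 lay among them. The log2 change was 0.30 (SE 0.11, 95% interval 0.06 to 0.54, adjusted p = 0.0658) in Nt+/+ and 0.22 (SE 0.12, 95% interval -0.03 to 0.48, adjusted p = 0.197) in Nt-/- mice. With a replicate block taken from the file names, the adjusted p in Nt+/+ mice was 0.0370, and over all alternatives for this value it ran from 0.0204 to 0.148.

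Rara (ENSMUSG00000037992, chr11:98927818-98974942), the retinoic acid receptor alpha, was at 40.5, 35.7, 36.8, 38.8, and 35.4 CPM in ad libitum–fed and at 36.8, 38.3, 53.7, 41.2, and 37.7 CPM in fasted Nt+/+ mice. The Nt-/- mice had 43.6, 38.1, 37.7, and 43.9 CPM when fed and 45.4, 36.9, 45.9, 32.6, and 47.8 CPM when fasted. All groups overlapped, and fasted Nt+/+ replicate 3 stood apart from the other 4 of its group. The log2 change was 0.15 (95% interval -0.08 to 0.38) in Nt+/+ and 0.04 (-0.20 to 0.28) in Nt-/- mice.

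**Figure D2:**
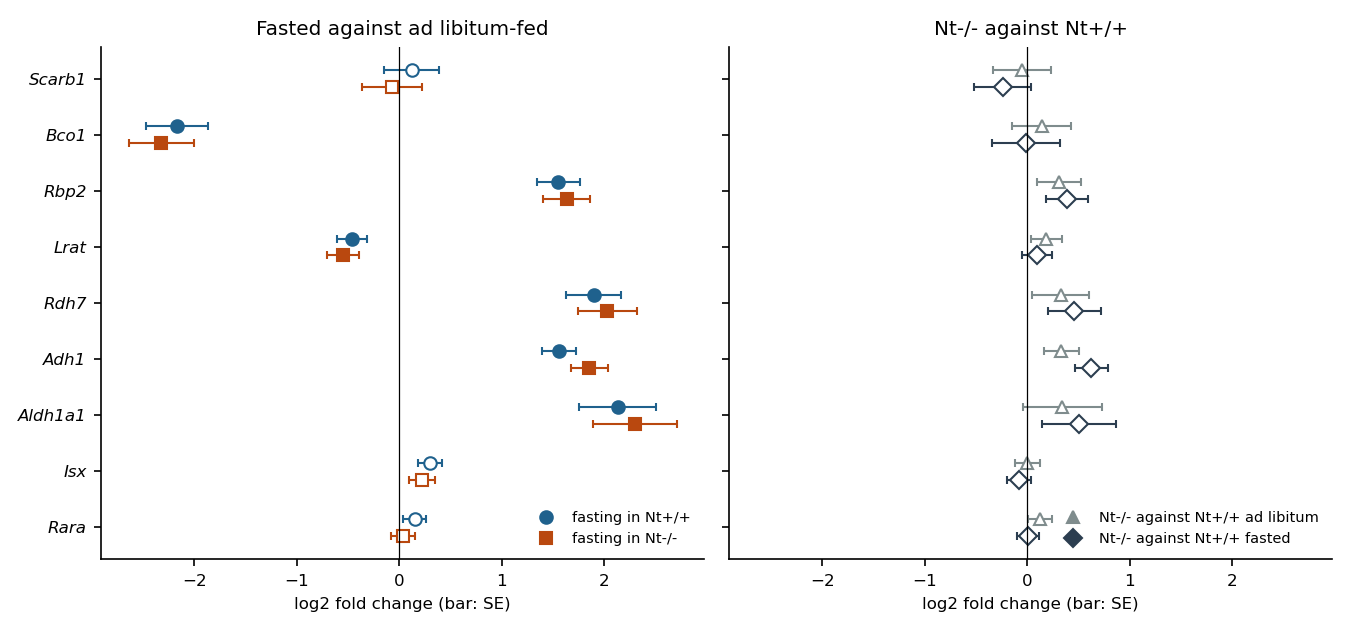
Log2 fold change with its SE of the 9 tested genes for fasting (left, Nt+/+ circles, Nt-/- squares) and for genotype (right, fed triangles, fasted diamonds), with filled symbols where the adjusted p is under 0.05. Aldh1a1, Rdh7, Adh1, and Rbp2 lie at 1.55 to 2.30 and Bco1 at -2.17 and -2.32 on the left, and no symbol is filled on the right.

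Genotype was compared within each diet, to ask whether neurotensin deficiency changed these genes. In ad libitum–fed mice, 0.00559% of genes passed the test (1 of 17875, Nts), and none of the 10 did. Adh1 had the smallest p of the list, with a log2 difference of 0.33 (SE 0.17, unadjusted p = 0.0660), and the intervals ran from -0.64 to 1.15 over the 9 tested genes. At an unadjusted p under 0.05, 299 genes (1.67%) passed and none of these 9 did. Fed genotypes did not overlap for 0.694% of all genes, and overlapped for each of the 10.

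In fasted mice, again 0.00559% of genes passed (1 of 17875, Nts) and none of the 10 did, while 1634 genes (9.14%) had an unadjusted p under 0.05, among them Adh1. All 5 fasted Nt-/- mice, at 232 to 334 CPM of Adh1, stood above all 5 fasted Nt+/+ mice, at 154 to 222 CPM, a separation that 1.56% of all genes showed. The log2 difference was 0.63 (SE 0.16, unadjusted p = 0.000906, adjusted p = 0.231, edgeR). DESeq2 gave an adjusted p of 0.0206 for it, and over all alternatives it ran from 0.0206 to 0.790, the last with the mouse whose labels disagree counted as Nt-/-. That mouse had Nts at 5.43 CPM, at the level of Nt+/+ mice. Leaving out 1 mouse at a time gave an adjusted p of 0.156 to 0.514 in edgeR. Aldh1a1 had a log2 difference of 0.51 (SE 0.36), Rdh7 of 0.46 (SE 0.26), and Rbp2 of 0.39 (SE 0.21), each with overlapping groups and an adjusted p of 0.596 or more. Bco1 differed by -0.01 (95% interval -0.70 to 0.68) and Lrat by 0.10 (-0.21 to 0.41).

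Whether the change with fasting differed between genotypes was tested as an interaction. No gene passed at the adjusted threshold in edgeR, 2.71% of genes had an unadjusted p under 0.05, and none of the 9 vitamin A genes was among them. The difference between genotypes was 0.29 (SE 0.23) for Adh1, 0.16 (SE 0.53) for Aldh1a1, 0.14 (SE 0.38) for Rdh7, 0.08 (SE 0.30) for Rbp2, -0.09 (SE 0.21) for Lrat, and -0.15 (SE 0.44) for Bco1. Intervals of this width, -1.07 to 0.77 for Bco1, include differences of more than 1 log2 unit for some genes.

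Markers of absorptive enterocytes, the cells in which most of these 10 genes are known to act, rose with fasting as well. Of all tested genes, 11.2% rose in Nt+/+ and 12.5% in Nt-/- mice. Of 14 enterocyte markers, none of them among the 10, 11 rose in Nt+/+ and 14 in Nt-/- mice. Their median log2 changes were 0.82 and 1.06, and none was at 0. The changes of the 14 single markers were uneven in Nt+/+ mice, from 0.35 (SE 0.18, not past the test) to 2.09 (SE 0.23). Their summed level was 7080 to 14548 CPM in fed and 14049.5 to 27432 CPM in fasted Nt+/+ mice, and 10595 to 15569 CPM in fed and 24347 to 33794 CPM in fasted Nt-/- mice. Between fasted genotypes their median log2 difference was 0.45, with none of the 14 past the test. Of 7 markers of dividing cells, 5 fell in Nt+/+ and 6 in Nt-/- mice, beside 10.4% and 12.6% of all genes.

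Set against that sum in the same mouse, a scale added after the data had been seen, fed and fasted groups of the 6 called genes did not overlap in either genotype. Because the sum itself was higher in fasted mice, genes whose CPM did not move come out lower on this scale: of all 17875 genes, 28.5% were lower in every fasted than in every fed Nt+/+ mouse and 0.459% were higher, and in Nt-/- mice 73.1% were lower and 0.526% higher. The separation of the 2 lower genes is therefore read only against those shares. Per 1000 CPM of enterocyte markers, Aldh1a1 was at 1.498 to 5.43 CPM in fed and 7.45 to 12.4 CPM in fasted Nt+/+ mice, a ratio of means of 2.68. The same ratio was 2.11 for Rdh7, 1.66 for Adh1, and 1.62 for Rbp2. Lrat and Bco1 were lower in fasted mice on this scale, by 2.35 and 7.77 times in the ratio of means. In Nt-/- mice the ratios were 2.12 for Aldh1a1, 1.75 for Rdh7, 1.54 for Adh1, and 1.34 for Rbp2. Isx and Rara were among the 73.1% of tested genes that separated as lower there. Cyp26b1, which was not tested, separated as lower too, on 5 to 7 counts in fed and 0 to 5 in fasted mice. Fasted Nt+/+ replicate 1 had an enterocyte sum of 14049.5 CPM, below that of fed Nt+/+ replicate 4 at 14548 CPM. In that fasted mouse Aldh1a1 was at 174 CPM, against 65.7 CPM in the fed one, Adh1 at 179 against 81.1 CPM, and Bco1 at 1.51 against 9.54 CPM. These are 1 pair of mice. Per 1000 CPM of markers, the fasted one had the highest Aldh1a1 and Adh1 of its group. They were at 12.4 and 12.7 CPM, with replicate 5 next at 9.67 and 8.96 CPM. Between fasted genotypes the groups overlapped on this scale for all 10 genes, as they did for all but 4.25% of genes lower and 0.0224% higher in Nt-/- mice, with Adh1 at 7.70 to 12.7 CPM per 1000 in Nt+/+ and 8.72 to 10.4 in Nt-/- mice. The marker sum is a sum of RNA levels, so it does not separate enterocyte number from marker RNA per cell. The part of enterocyte number in the changes was not tested beyond these values.

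**Figure D3:**
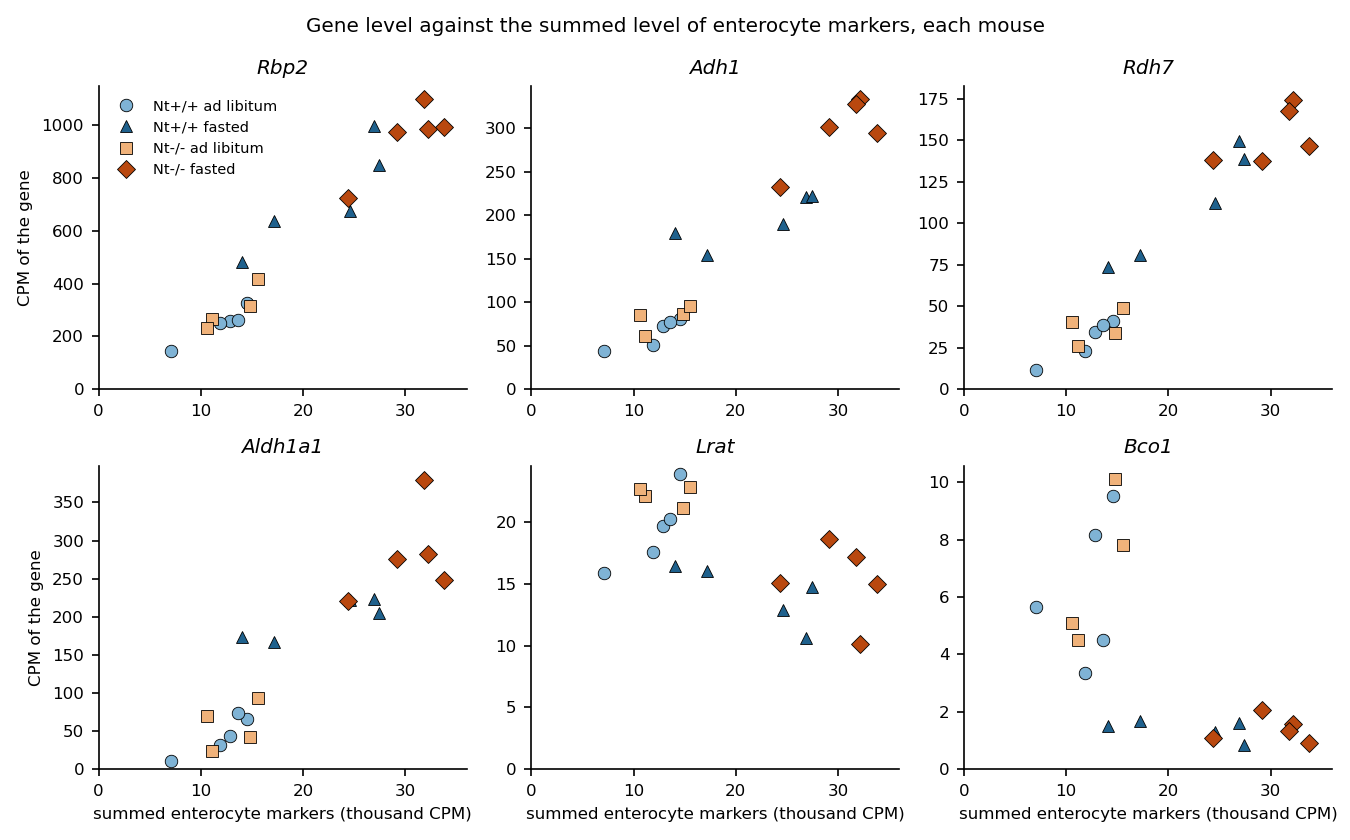
CPM of 6 genes (vertical axes from 0) against the summed CPM of 14 enterocyte markers (horizontal axes, in units of 1000 CPM), in each of the 19 mice, with 1 symbol per group. Of the 10 fasted mice, 9 lie to the right of every fed mouse; Bco1 is at 2.07 CPM or less in every fasted mouse, including fasted Nt+/+ replicate 1 at 14049.5 CPM of markers.

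The other genes of the pathway were read from a list of 47, also chosen with earlier results known, of which 35 passed the filter on low counts. In Nt+/+ mice, 18 of the 35 passed the test, 16 higher and 2 lower, with a median log2 change of 0.47. Of all genes, 21.6% passed there, 11.2% higher and 10.4% lower. In Nt-/- mice 17 passed, 14 higher and 3 lower, with a median of 0.49, and 16 genes passed in both. Of all genes, 25.2% passed in Nt-/- mice, 12.5% higher and 12.6% lower. The same shares stand beside the counts by function below. The genes below the filter were Stra6, Lpl, Rdh19, Sdr16c6, Aldh1a2, Aldh8a1, Cyp26a1, Cyp26c1, Crabp1, Crabp2, Rarb, and Rxrg.

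Among 11 tested genes of uptake, storage, and transport, 6 rose and 1 fell in Nt+/+ mice, and 4 rose and 1 fell in Nt-/- mice. Rbp7, a cellular retinol-binding protein, fell by 1.87 (SE 0.15) in Nt+/+ and by 2.45 (SE 0.16) in Nt-/- mice. Cd36, a fatty acid and carotenoid transporter, rose by 1.59 (SE 0.34) and 2.19 (SE 0.37). Mttp, which loads lipid onto chylomicrons, rose by 1.03 and 1.29, and Dgat1, which can esterify retinol as well as diacylglycerol, by 0.52 and 0.63. Lipe, a lipase with retinyl ester hydrolase activity, rose by 0.52 and 0.70. Ttr, the plasma partner of Rbp4, rose by 1.00 in Nt+/+ mice; its value in Nt-/- mice was 0.67, which did not pass.

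Of 18 tested oxidoreductases of retinol and retinal, 8 rose in each genotype and 1 fell in Nt-/- mice. Adh4, another retinol-oxidizing alcohol dehydrogenase, had the largest rise of these, 2.09 (SE 0.33) in Nt+/+ and 2.58 (SE 0.36) in Nt-/- mice. Adh7 rose by 1.46 and 1.42 from 0.388 and 0.699 CPM, and Adh5, the formaldehyde-oxidizing class, by 0.29 and 0.35. Rdh16 rose by 1.59 and 1.93, Rdh16f2 by 1.54 and 1.90, and Rdh9 by 1.44 and 1.83. Rdh9 is uncertain, because 2273 of its 2599 windows of 100 bases (87.5%) also occur in another gene, mostly Rdh16f1. Dhrs3, which reduces retinal back to retinol, rose by 0.53 (SE 0.09) and 0.49 (SE 0.09), and Dhrs4 by 0.86 and 0.72. Rdh12 fell by 1.02 (SE 0.35) in Nt-/- mice, where it was under 1 CPM in every mouse, and was -0.61 in Nt+/+ mice, where it did not pass.

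Of the genes of retinoic acid synthesis and clearance, Aldh1a7 rose by 2.25 (SE 0.32) in Nt+/+ and 2.49 (SE 0.35) in Nt-/- mice, from 8.65 and 9.75 CPM. Fabp5, a fatty acid–binding protein that can carry retinoic acid, fell by 0.50 and 0.64. Among 3 tested receptors Rxra, the common partner of nuclear receptors, rose by 0.49 (SE 0.08) and 0.51 (SE 0.09), while Rarg and Rxrb did not pass. No gene of the list passed between genotypes. The smallest p in fed mice were for Rbp7, at 0.27 (SE 0.14, unadjusted p = 0.0748), and Aldh1a3, at -0.66 (SE 0.35, unadjusted p = 0.0754). In fasted mice they were for Cd36, at 0.80 (SE 0.32, unadjusted p = 0.0230, adjusted p = 0.452), and Mttp, at 0.33 (SE 0.16, unadjusted p = 0.0528). For the difference in the fasting effect they were for Rbp7, at -0.59 (SE 0.21, unadjusted p = 0.0122, adjusted p = 1.00), and Rdh10, at 0.22 (SE 0.13, unadjusted p = 0.103).

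**Figure D4:**
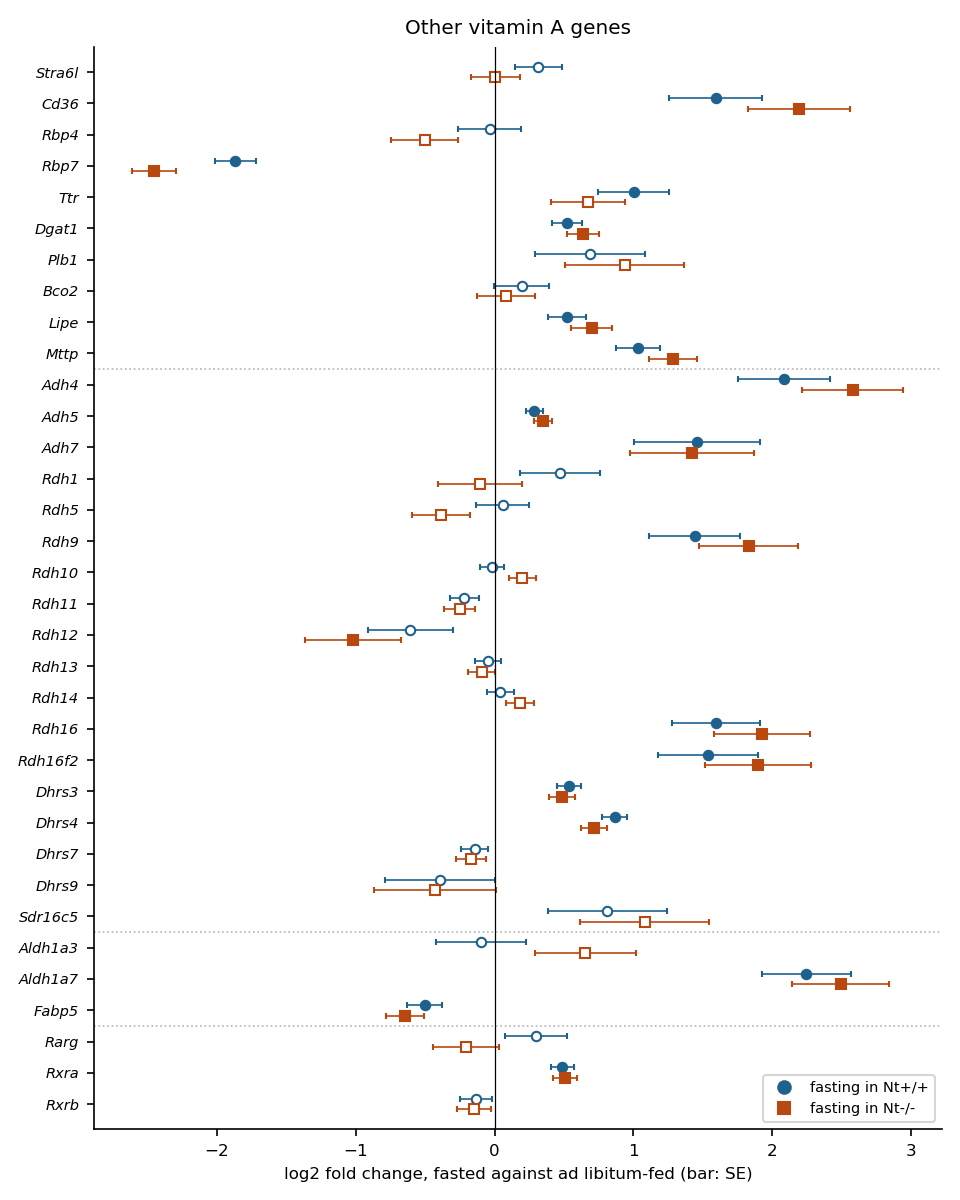
Log2 fold change with its SE of 34 of the 35 other tested vitamin A genes, fasted against ad libitum–fed, in Nt+/+ (circles) and Nt-/- mice (squares), with filled symbols where the adjusted p is under 0.05 and dotted lines between functional groups. Rbp7 lies lowest, at -1.87 and -2.45, and Adh4 and Aldh1a7 highest, at 2.09 to 2.58.

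The 2 genes of the 10 whose group means of log2 CPM (prior count 2) spanned the widest range were Aldh1a1, at 2.89, and Rdh7, at 2.49 log2 units. For each, the 3 other tested genes with the smallest root mean square difference from it, over the 19 mice and after centring each gene, were named. For Aldh1a1 these were Aldh1a7, at 0.21 log2 units, Adh4, at 0.36, and Gm3776, at 0.39. Aldh1a7 is the paralog whose upstream sequence was shown beside that of Aldh1a1. For Rdh7 they were Hsd3b3, a steroid dehydrogenase, at 0.26, Ephx2, the soluble epoxide hydrolase, at 0.28, and Creb3l3, a transcription factor of hepatic and intestinal lipid metabolism, at 0.29. These 19 mice share diet groups and libraries, and the likeness is a description.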

How the data were processed

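Ribosomal RNA–depleted libraries were sequenced as 100-base single-end reads, trimmed with Trimmomatic 0.39, and mapped to Ensembl GRCm38 transcripts with RSEM, per the study's methods and the submitters' processing notes; the RSEM version and strand setting are not given in the sources used here. The authors deposited RSEM expected counts, which are not normalized, and TPM per gene and mouse; TPM was used only to compare levels between genes. Expected counts were rounded and fitted with edgeR 4.0.16 (R 4.3.3; TMM, filterByExpr, quasi-likelihood test, 4 groups, no covariate), with all 19 mice in 1 fit and Benjamini-Hochberg adjustment over 17875 genes. The fit was tested on simulated counts with known changes. DESeq2 1.42.0, other filters and normalization, replicate blocks, sex, the other label of the disputed mouse, only the groups compared, and leaving out mice were alternatives. Of 55487 identifiers, 55141 matched a symbol in GENCODE M21 (GRCm38). Sequences and promoter windows were RefSeq's, on GRCm38.p6.

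Members and lists were chosen with earlier results of these data known. Named were all members, every called gene of the pathway list or, where none was called, the 2 with the smallest p, the 3 genes most like each of 2 members, and Nts. Enterocyte and other marker genes were used as lists. Of the pathway list, 1 gene is counted but not reported by name here.

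Same-numbered mice, by title, deviated together from their group means in fasting in Nt+/+ mice (correlation 0.16 to 0.50 over 5 pairs) and between fasted genotypes (0.12 to 0.45 over 5 pairs), each pair over 0.1. In fasting in Nt-/- mice and between fed genotypes, 2 of 4 pairs were over 0.1 by title and 4 of 4 by the number in the file names. Over all pairs of mice from different groups, 19 of 27 with the same title number were over 0.1, and 17 of 108 with different title numbers. By the number in the file names these were 24 of 27 and 12 of 108. The labels do not say what the numbers mark.

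Nt-/- fasted replicate 5 has no sex label and was dropped from the fit with sex. Depth per mouse is the total of the deposited counts, and it limits the precision of low genes such as Bco1 and Cyp26b1.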

Additional observations from a re-analysis of the deposited data

Results flagged for a closer look

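In a group of 5 mice, Rara in fasted Nt+/+ replicate 3, at 53.7 CPM, stood farther from the nearest of the others, at 41.2 CPM, than Dixon's test allows at the 95% level. It was 1 of 40 groups examined, and chance alone marks about 1 group in 20. No difference in the fasting effect between genotypes passed the test for any of the 9 tested genes.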

How the results depend on the processing

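Of 1291 values of the 9 tested genes under alternatives, 1279 stayed on their side of the threshold, and none of the called values reversed. Among these 1279, 56 values called in neither fit changed sign. The values that crossed the threshold were those of Lrat with fasting in Nt+/+ mice, which lost its call without any 1 of the 4 mice named beside it, Isx with fasting in Nt+/+ mice, which gained one under 7 alternatives, and Adh1 between fasted genotypes under DESeq2, where the number of the 10 genes called became 1; the cause was not tested. Leaving out 1 mouse at a time gave 5 to 7 of the 10 genes called with fasting in Nt+/+ mice, 6 in Nt-/- mice, and 0 in the other comparisons, and 17 to 19 and 15 to 19 genes of the pathway list. With the title number as a replicate block, 6 genes were called with fasting in each genotype, with 19 and 21 of the pathway list in place of 18 and 17. With the file-name number as a replicate block 7 were called in Nt+/+ mice, Isx being the addition, and neither block changed another call of the 10 genes. Where leaving out a mouse removed a call, the cause was not tested. Depth limits Cyp26b1, Bco1 in fasted mice, and Scarb1.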
